A study of Chlorocebus sabaeus with 18 samples.

Results

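The expanded CGG repeat was added to COS-7 cells in which the splicing factor TRA2A had been knocked down, and the resulting RNA was compared with that of cells with the knockdown alone. The comparison took in 6 of the 18 samples of the series, chosen by their labels: 3 of the group CGG_siTRA and 3 of the group siTRA. COS-7 is a fibroblast-like line from the kidney of the African green monkey, made with the large T antigen of the virus SV40. CGG_siTRA cells carried 60 CGG repeats in the leader (5′ untranslated region) of FMR1 together with the TRA2A knockdown, and siTRA cells carried the knockdown only, so that both groups shared it. The other groups used below were CGG (the repeat without knockdown), TRA_OE (TRA2A overexpressed) and CTL (control cells), with 3 libraries each. The labels name neither cells with an empty vector nor cells with a control siRNA, so the repeat and the delivery of its plasmid cannot be told apart here. Where nothing in the labels says that the samples of a group came from separate cultures, the p-values measure the spread between samples of a group, which may be technical. In the gene and bin tests that spread was estimated over all 15 libraries of the 5 groups, not from the 6 compared libraries alone. Results of fits of the 6 libraries alone are given below. The identity of the line was not checked against kidney or fibroblast markers because the files give no gene names.

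TRA2A is an RNA-binding protein of the serine/arginine-rich type that binds exonic sequences rich in GAA and helps the splicing machinery to include the exon. CGG repeats in the leader of FMR1, at premutation length, are linked to the tremor and ataxia syndrome FXTAS. RNA that carries the repeat is known to gather in nuclear foci and to bind splicing regulators, and the series title places TRA2A among the proteins it recruits. Comparing CGG_siTRA with siTRA asks which transcripts differ with the repeat when TRA2A is already low.

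The totals over positioned exon bins were 136478500, 142191311 and 172371949 in CGG_siTRA libraries 16, 17 and 18, against 168489526, 121142115 and 164357064 in siTRA libraries 13, 14 and 15. The library numbers are those of the deposited columns. Library 14 stood apart from the others: among the 6 libraries it had either the highest or the lowest level of 65.3% of the 14969 genes tested, while the other libraries did so for 13.3% to 43.4%. Library 18 came next, at 43.4%. Results that rest on library 14 are given with and without it.

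One gene taken as the knockdown target was examined first. The files do not name TRA2A, and it was picked by behaviour as the 1 gene whose level was at least doubled in TRA_OE relative to CTL and was 2-fold or more down in siTRA over CTL and in CGG_siTRA over CGG. This gene, ENSG00000164548.10 at chr7:23504780-23532041 of the human build GRCh38, had 4020, 4395.5 and 4408 normalised counts in CGG_siTRA libraries 16, 17 and 18, against 3709, 4916 and 3117 in siTRA libraries 13, 14 and 15. The groups overlapped, because library 14 had the highest level of the 6. The log2 change was 0.20 ± 0.10 (standard error), with an adjusted p of 0.305 by edgeR's quasi-likelihood test. Without library 14 the log2 change was 0.36, with an adjusted p of 0.151. Of its exon bins, 22 had a mean of at least 50 normalised counts in CTL, and all 22 were tested for a change in their use relative to the rest of the gene. The test called 0 of the 22, with a smallest adjusted p of 1.0. Since the pick used siTRA over CTL and CGG_siTRA over CGG, its low level in both knockdown groups is no separate finding.

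Of 14969 genes, 2 were higher and 0 lower in CGG_siTRA than in siTRA at an adjusted p under 0.05, which is 0.0134% of the genes tested for the rises and 0.0% for the falls. Both belong to short gene models, on chromosomes 12 and 9. At an unadjusted p under 0.05 by edgeR there were 2833 genes, 18.9% of those tested, of which 1579 were higher and 1254 lower. That number was 1268 in a fit of the 6 libraries alone and 1667 without library 14. With each library left out it ran from 1586 without library 17 to 4203 without library 16. The number called depended on the tool: DESeq2 called 566 genes, 297 higher and 269 lower, which held both of the called genes, and limma called 5. In bulk RNA a change in the share of cells that express a gene and a change in RNA per cell cannot be told apart.

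The called gene on chromosome 12, ENSG00000175197.11 at chr12:57516588-57520517, had 6905, 7229 and 6071 normalised counts in CGG_siTRA libraries 16, 17 and 18, against 4490, 4008 and 4173 in siTRA libraries 13, 14 and 15. Every CGG_siTRA library lay above every siTRA library. The means were 6735 ± 597 in CGG_siTRA and 4223 ± 245 in siTRA (SD, n = 3 each), and the fitted change was 0.73 ± 0.08 on the log2 scale (standard error), with an adjusted p of 5.2e-04 by edgeR. The same gene had 6770, 6778 and 6736 normalised counts in CGG, against 1740, 1748 and 1599 in CTL. In TRA_OE it had 6052, 5826 and 6899. The libraries of CGG_siTRA, CGG and TRA_OE all lay between 5826 and 7229, those of siTRA lay below them, and those of CTL were the lowest.

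The called gene on chromosome 9, ENSG00000148346.11 at chr9:128149441-128153455, had 586, 625 and 575 normalised counts in CGG_siTRA libraries 16, 17 and 18, against 249.5, 237 and 195 in siTRA libraries 13, 14 and 15. The groups did not overlap, and the lowest CGG_siTRA library was more than double the highest siTRA library. The means were 595 ± 26.0 in CGG_siTRA and 227 ± 28.4 in siTRA (SD, n = 3 each), and the fitted change was 1.45 ± 0.16 on the log2 scale, with an adjusted p of 5.2e-04 by edgeR. It had 564, 586 and 555 normalised counts in CGG, against 96.6, 109.7 and 57.6 in CTL. In TRA_OE it had 553, 745 and 608. As for the chromosome 12 gene, siTRA lay below CGG_siTRA, CGG and TRA_OE and above CTL.

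**Figure D1:**
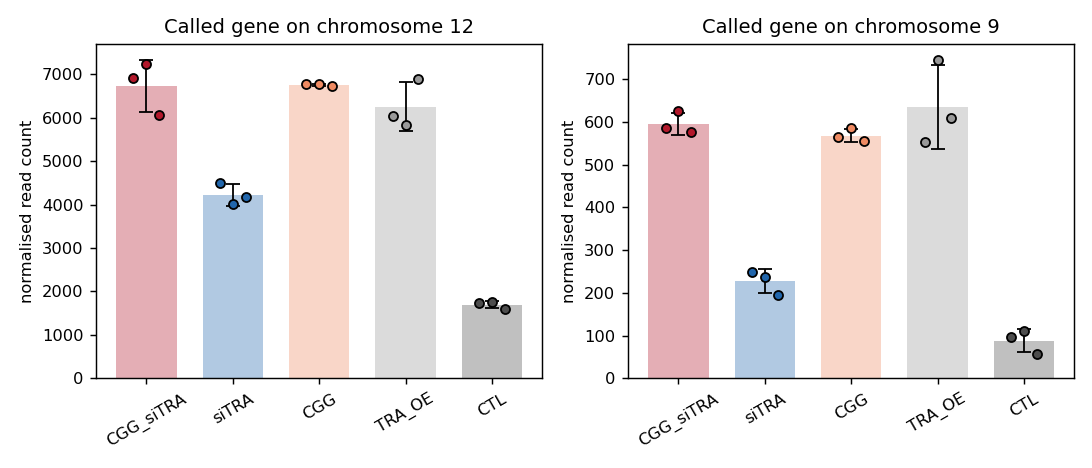
Normalised read counts of the called genes on chromosomes 12 (left) and 9 (right) in 5 groups. Points are libraries, bars are group means and error bars are SDs (n = 3 each). The CGG_siTRA libraries lie between 6071 and 7229 (left) and between 575 and 625 (right), above all siTRA libraries in both panels.

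Both calls held without library 14, where the log2 changes were 0.67 for the chromosome 12 gene and 1.46 for the chromosome 9 gene, each with an adjusted p of 0.00297 by edgeR. A fit of the 6 libraries alone kept only the chromosome 9 gene, and the adjusted p of the chromosome 12 gene was then 0.0767. Both genes differed more between CGG and CTL than between CGG_siTRA and siTRA. The log2 change of CGG over CTL was 2.02 ± 0.09 for the chromosome 12 gene, and the change of CGG_siTRA over siTRA minus that of CGG over CTL was -1.28 ± 0.12 on the log2 scale, with an adjusted p of 8.8e-07 for the difference by edgeR. For the chromosome 9 gene the change of CGG over CTL was 2.71 ± 0.18, and the same difference was -1.26 ± 0.24, with an adjusted p of 0.00132 for the difference. The changes compared come from different libraries. Their difference holds the delivery of siRNA and plasmid as well as the repeat, which cannot be told apart. TRA_OE cells, which had no repeat, averaged 6259 ± 566 normalised counts for the chromosome 12 gene and 635 ± 98.9 for the chromosome 9 gene (SD, n = 3 each). In CGG the means were 6761 ± 22.4 and 568 ± 15.7 (SD, n = 3 each).

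Below the threshold, 13 genes had an adjusted p between 0.05 and 0.1, of which 10 were higher and 3 lower in CGG_siTRA. They were chosen after their values were seen. The smallest adjusted p among them was 0.0655. A gene at chr19:8580242-8610735 had 636, 646 and 575 normalised counts in CGG_siTRA libraries 16, 17 and 18, against 394, 435 and 370.0 in siTRA libraries 13, 14 and 15, a log2 difference of 0.70 ± 0.12. A gene at chr21:45405137-45513720 had 13479, 15957 and 15019 normalised counts in CGG_siTRA, against 11652, 11697 and 12086 in siTRA, a log2 difference of 0.39 ± 0.07. Both had separate groups with siTRA library 14 close to its fellows. Among the 3 lower genes, one at chr4:165327623-165343160 had 26733, 24182 and 24846 normalised counts in CGG_siTRA, against 31141, 35905 and 36831 in siTRA, a log2 difference of -0.39 ± 0.08 with an adjusted p of 0.0805 by edgeR. One at chr8:102648779-102655902 had 5401, 5246 and 5093 in CGG_siTRA, against 6460, 7455 and 6666 in siTRA, a log2 difference of -0.32 ± 0.06 with an adjusted p of 0.0798. The groups were separate for both lower genes, and library 14 was the highest of the 6 only for the chromosome 8 gene. Without library 14, the adjusted p of these 4 genes lay between 0.116 and 0.151.

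Differences of 2-fold or more were few among expressed genes. With a mean of at least 50 normalised counts in the higher group, 14 genes were at least 2-fold higher and 7 at least 2-fold lower in CGG_siTRA, whether called or not. Groups that did not overlap, an unadjusted p under 0.01 and a mean of 50 were met by 653 single genes, 317 higher and 336 lower. Over all genes tested, 2739 (18.3%) had groups that did not overlap, 765 higher and 1974 lower. Overlap was judged on counts divided by the authors' factors, and the log2 differences come from the edgeR fit with TMM scaling. The median log2 difference of all genes was -0.05 with the authors' scaling and 0.01 with TMM, so the lean to lower genes is not read as a result.

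The 10 largest differences upward among genes that were not called ran from 0.89 to 1.55 on the log2 scale, mostly in genes with low counts. The largest was at chr19:48755559-48758330, with 89.9, 62.1 and 60.8 normalised counts in CGG_siTRA libraries 16, 17 and 18, against 33.0, 9.1 and 31.2 in siTRA libraries 13, 14 and 15. The groups were separate, and library 14 was the lowest. The log2 difference was 1.55 ± 0.42, and 1.18 without library 14, with adjusted p-values of 0.133 and 0.326 by edgeR. The next, at chr17:6684713-6713567, had 84.5, 34.8 and 49.7 normalised counts in CGG_siTRA, against 20.7, 23.4 and 16.6 in siTRA. Here the CGG_siTRA libraries spread more than the siTRA libraries. The gene at chr1:149832670-149839767 had 204, 370 and 578 in CGG_siTRA, against 153, 202 and 162 in siTRA, where library 16 lay just above library 14. The gene at chr21:6484855-6499261 had 587, 511 and 527 in CGG_siTRA, against 376, 111.9 and 333 in siTRA. The low value of library 14 set much of that difference, which was 1.02 with it and 0.65 without it on the log2 scale. Library 14 was the lowest of the 6 libraries for 6 of these 10 genes.

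The 10 largest differences downward ran from -0.997 to -0.52 on the log2 scale, and library 14 was the highest of the 6 libraries for all 10. A gene at chr11:59172492-59208587 had 43.9, 36.9 and 43.3 normalised counts in CGG_siTRA libraries 16, 17 and 18, against 71.6, 108.0 and 81.0 in siTRA libraries 13, 14 and 15. Its log2 difference was -0.997 ± 0.28, and -0.85 without library 14. A gene at chr9:33528632-33573001 had 48.3, 47.4 and 30.4 in CGG_siTRA, against 84.7, 95.0 and 78.1 in siTRA, with a log2 difference of -0.97 ± 0.31 and, without library 14, -0.92. Both kept their size without library 14, and neither passed adjustment.

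Among the larger genes of that set, the one at chr4:73740506-73743716 had 504, 529 and 412 normalised counts in CGG_siTRA libraries 16, 17 and 18, against 699, 923 and 607 in siTRA libraries 13, 14 and 15. The one at chr11:102317450-102339394 had 451, 497 and 405 in CGG_siTRA, against 620, 786 and 656 in siTRA. Their log2 differences were -0.56 ± 0.15 and -0.54 ± 0.16, with adjusted p-values of 0.133 and 0.135 by edgeR, so neither was called. The differences were -0.40 and -0.46 without library 14, with adjusted p-values of 0.342 and 0.349 by edgeR. Library 14 was the highest of the 6 for both genes. Without the knockdown both stood the other way: the log2 change of CGG over CTL was 2.39 ± 0.16 for the chromosome 4 gene and 0.93 ± 0.16 for the chromosome 11 gene, with adjusted p-values of 8.1e-09 and 4.4e-04 by edgeR. The means of the chromosome 4 gene were 508 in CGG and 482 in CGG_siTRA, against 98.0 in CTL and 743 in siTRA. Those of the chromosome 11 gene were 423 in CGG and 451 in CGG_siTRA, against 226 in CTL and 687 in siTRA. These changes hold the delivery of siRNA and plasmid as well as the repeat, which cannot be told apart. The gene at chr10:89392546-89406486 had 199, 231 and 207 in CGG_siTRA, against 276, 470 and 256 in siTRA, and its log2 difference of -0.58 was halved, at -0.29, without library 14.

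**Figure D2:**
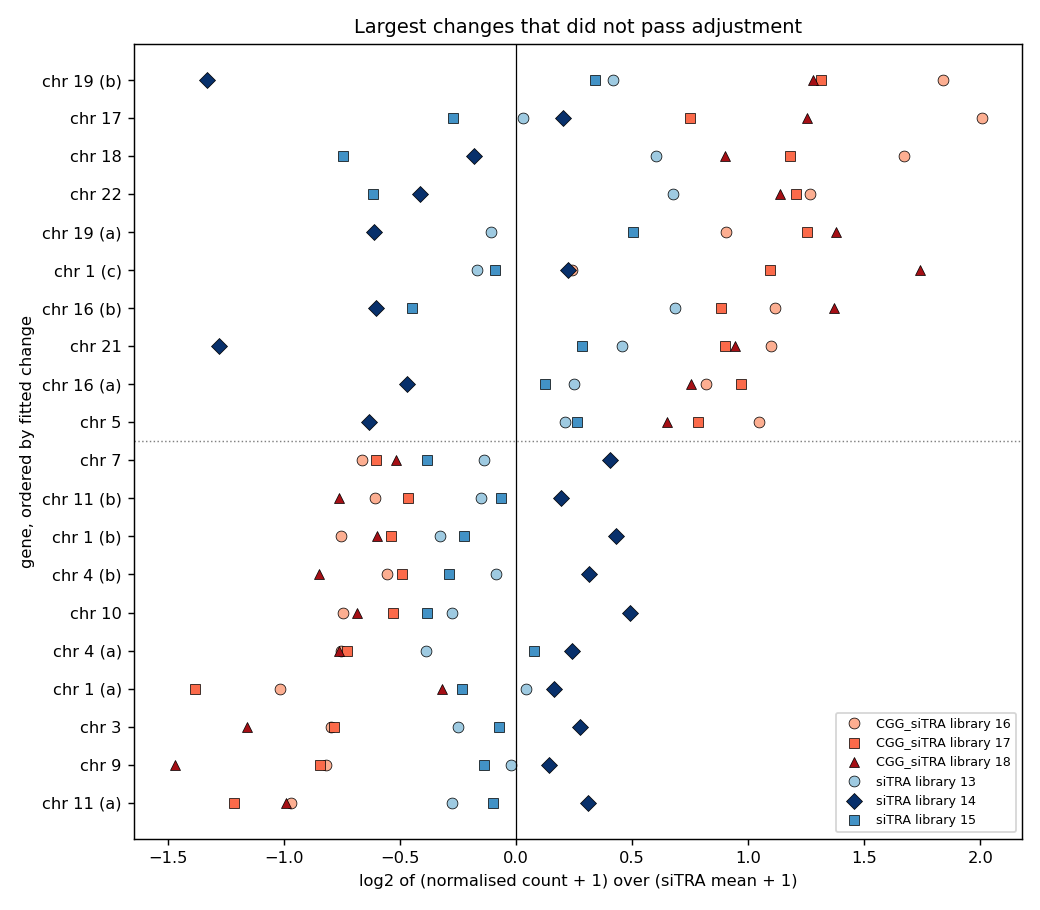
The 10 largest differences in each direction among genes that did not pass adjustment. Each point is 1 library, drawn as the log2 of its normalised count plus 1 over the siTRA mean plus 1, and genes are named by chromosome. The siTRA library 14 (dark diamonds) is the outermost siTRA library of the lower 10 genes, and in the upper 10 it is the lowest of the 6 for 6 genes.

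The number of genes called turned on which library was left out. Without siTRA library 14, 2 genes were called, and without siTRA libraries 13 and 15 in turn, 3 each. Without CGG_siTRA library 16 the count was 599, of which 215 were higher and 384 lower, and it was 2 without library 17 and 8 without library 18. The 2 called genes were among the 599, and 291 of the 599 were also among the 566 of DESeq2. Library 16 was the CGG_siTRA library whose genes lay least often at an end of the 6, at 24.5%.

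**Figure D3:**
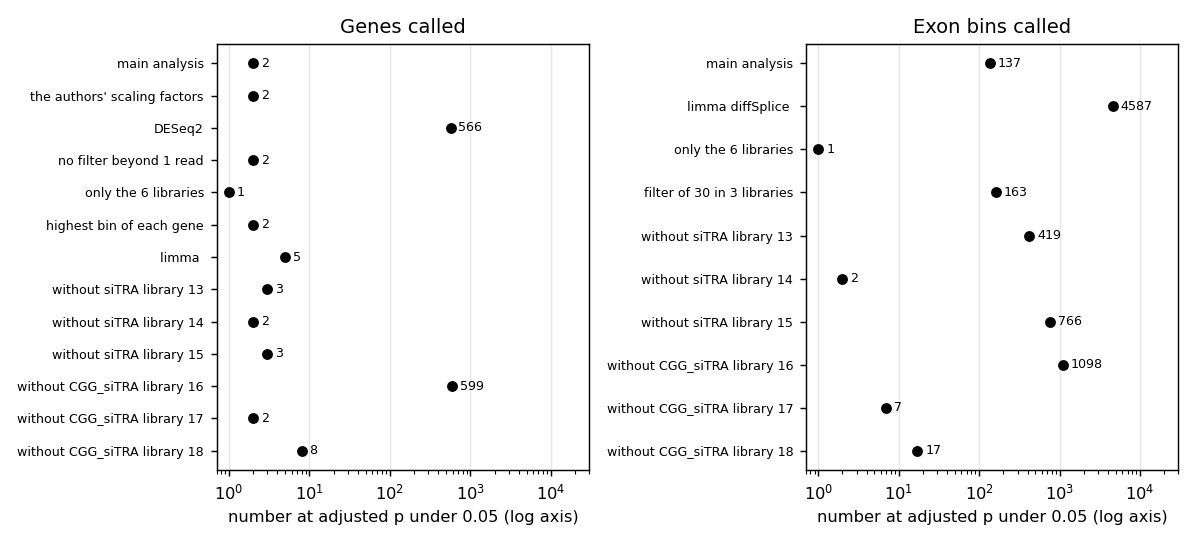
Number of genes (left) and exon bins (right) with an adjusted p under 0.05 for CGG_siTRA over siTRA, on a log axis, in the main analysis, under other tools or filters, and with each library left out. Genes range from 1 to 599 and bins from 1 to 4587.

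Gene groups were described by position, since no names were available. The median log2 difference over all 14969 genes was 0.01. It was 0.15 for the 1034 genes of chromosome 19, of which 76.2% were above 0, and 0.14 for the 352 genes of chromosome 22, of which 77.3% were above 0. For the 668 genes of chromosome 16 it was 0.12. At the other end it was -0.08 for the 270 genes of chromosome 13 and -0.07 for the 563 genes of chromosome 4, of which 33.0% and 33.9% were above 0. None of these chromosomes held a called gene.

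The shifts differed between libraries of the same group. On chromosome 19 the median log2 deviations from the mean of the 6 libraries were -0.02, 0.10 and 0.11 in CGG_siTRA libraries 16, 17 and 18, against 0.00, -0.16 and -0.03 in siTRA libraries 13, 14 and 15. On chromosome 13 they were 0.04, -0.02 and -0.07 in CGG_siTRA, against 0.00, 0.10 and 0.00 in siTRA. Libraries 17 and 18 stood opposite library 14 on both chromosomes, and library 16 lay with siTRA libraries 13 and 15 or beyond them. Without library 14 the median for chromosome 19 was 0.10, that for chromosome 22 was 0.08, that for chromosome 16 was 0.06, that for chromosome 13 was -0.03 and that for chromosome 4 was -0.04. Without library 16 the median for chromosome 13 was -0.14, and without library 18 it was -0.05. With each library left out in turn, the median ran from 0.10 to 0.21 for chromosome 19 and from -0.14 to -0.03 for chromosome 13. It ran from 0.07 to 0.17 for chromosome 22, from 0.06 to 0.14 for chromosome 16 and from -0.10 to -0.04 for chromosome 4. Each of these kept its sign. The part of library 14 in these shifts was seen in those values, and the part of sequence composition was not tested.

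**Figure D4:**
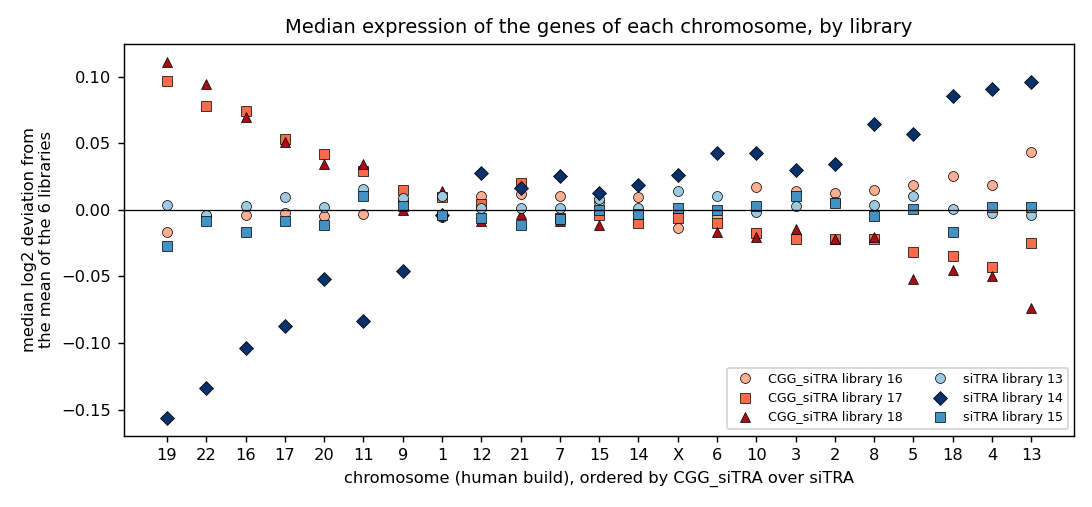
Median log2 deviation of the genes of each chromosome from the mean of the 6 libraries, 1 point per library, with chromosomes ordered by the median log2 difference of CGG_siTRA over siTRA. CGG_siTRA libraries 17 and 18 and siTRA library 14 lie at opposite ends on chromosomes 19, 22 and 16, and again on chromosomes 13 and 4. Libraries 13 and 15 stay near 0, and library 16 reaches 0.04 on chromosome 13.

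The difference also went with gene length on the genome. The quintile of genes with the shortest span, up to 9.84 kb, had a median log2 difference of 0.09, and it held both called genes. This median was 0.05 without library 14, 0.03 without library 18 and 0.14 without library 16. The quintile with the longest span, above 100.6 kb, had -0.05, which was -0.03 without library 14, -0.03 without library 18 and -0.09 without library 16. In the shortest quintile the libraries deviated by -0.04, 0.04 and 0.09 in CGG_siTRA libraries 16, 17 and 18, against 0.01, -0.07 and -0.02 in siTRA libraries 13, 14 and 15. Library 16 again fell among the siTRA libraries. By mean level, the lowest quintile of genes had a median of 0.05 and the highest quintile -0.02. Without library 14 these were 0.11 and -0.04. The median of the lowest quintile was 0.02 without library 15 and 0.0035 without library 17, and that of the highest was -0.04 without library 16 and -0.02 without libraries 15 and 17 in turn.

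Genes that differed between CGG and CTL, where TRA2A was not knocked down, were then followed in the knockdown cells, from libraries the comparison did not share. CGG over CTL had 1779 higher genes (11.9% of those tested) and 1843 lower genes (12.3%). In CGG_siTRA over siTRA the median log2 difference was -0.03 for the 1779 and 0.03 for the 1843, against 0.01 over all genes. For the 174 genes that were at least 2-fold higher in CGG over CTL the median was 0.01, with 54.6% above 0, and both called genes were among them. For the 185 that were at least 2-fold lower it was 0.04. With 1 library left out in turn, the medians ran from -0.03 to 0.05 for the 174 and from -0.01 to 0.07 for the 185, so neither of these kept its sign. Those of the full sets did, at -0.05 to -0.02 for the 1779 and 0.01 to 0.04 for the 1843. The sign for the 1843 depended on the scaling, however. With the authors' scaling the medians were -0.09 for the 1779 and -0.04 for the 1843, against -0.05 over all genes. Genes that moved with TRA2A overexpression were treated likewise: TRA_OE over CTL had 2172 higher genes (14.5%) and 2151 lower genes (14.4%), with medians of -0.01 and 0.02 in the knockdown comparison. With the authors' scaling these medians were -0.08 and -0.04. The 77 genes at least 2-fold higher in TRA_OE had a median of 0.09, which was 0.03 without library 14, 0.05 without library 17 and 0.14 without library 15. The 367 at least 2-fold lower had 0.09, which was 0.03 without library 18. Both called genes were also among the 77. Since both sets were defined against CTL, they share those control libraries with each other.

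Exon bins, the pieces into which the exons of a gene are cut, were tested for a change in their use relative to the other bins of their gene. The test called 137 of 265486 bins (0.0516%) in 88 genes, 112 used more and 25 used less in CGG_siTRA. At an unadjusted p under 0.05 there were 14109 bins. That number was 6371 in a fit of the 6 libraries alone. With each library left out it ran from 9174 without library 14 to 22167 without library 15. Reads that cross bin borders enter the count of every bin they touch, so neighbouring bins are not independent. Of the 137 bins, 25 lay in overlap groups, where genes on the same stretch could not be separated. Called bins were short where they were used more, with a median width of 51 bases, against 94 bases for all tested bins.

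Library 14 had the lowest relative use of the 6 libraries in 106 of the 112 bins called higher, and the highest in 23 of the 25 called lower. Over all tested bins it was the lowest in 36.4% and the highest in 27.9%. Library 18 had the highest use in 82 of the 112, and library 17 in 27. Without library 14 only 2 bins were called, both of them among the 137. Without CGG_siTRA libraries 17 and 18 in turn 7 and 17 were called, and without library 16, 1098. In 69 of the 112 and in 9 of the 25 the groups did not overlap in relative use. Over all bins tested they did not overlap in 11.6%, with 17390 bins higher and 13506 lower in CGG_siTRA. The called bins were chosen by a test on these same libraries, so nothing is read from their larger share.

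The bin with the smallest p lay at chr19:52269593-52269631, the second tested bin from the 5′ end of a gene at chr19:52269571-52296046. It took 0.36%, 0.56% and 0.74% of the normalised counts of its gene in CGG_siTRA libraries 16, 17 and 18, against 5.13%, 0.36% and 5.23% in siTRA libraries 13, 14 and 15. Library 14 had the level of the CGG_siTRA libraries, so the groups overlapped. The log2 difference in use was -2.71, with an adjusted p of 1.4e-05 by diffSpliceDGE, and it was -3.20 without library 14, with an adjusted p of 2.9e-11. In normalised counts the bin had 17.2, 181 and 12.7 in the 3 CTL libraries, so a high value was found in 1 control library as well, and the 6 libraries of CGG and TRA_OE had 8.0 to 19.2. The bin was high in 3 of the 15 libraries, from groups CTL and siTRA.

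The other bin called with and without library 14 lay at chr10:17229278-17229290, the second tested bin of a gene at chr10:17228259-17237593. It had 1308, 1804 and 2048 normalised counts in CGG_siTRA libraries 16, 17 and 18, against 1249, 1261 and 1353 in siTRA libraries 13, 14 and 15. Library 16 lay inside the siTRA range. As a share of the gene it took 0.53%, 0.76% and 0.82% in CGG_siTRA, against 0.47%, 0.52% and 0.48% in siTRA, a difference of 0.53 on the log2 scale with an adjusted p of 0.0076 by diffSpliceDGE. The adjusted p was 0.341 without library 17 and 0.591 without library 18. Its level was 862, 958 and 805 in CTL, below all 6 libraries of the knockdown groups. CTL was also below CGG, at 1150, 1397 and 1285, and below TRA_OE, at 1712, 2036 and 1281.

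Among the next bins by p, adjoining ones at chr12:103930410-103930424 and chr12:103930425-103930437 were used more in CGG_siTRA. The first had 646, 842 and 947 normalised counts in CGG_siTRA, against 538, 403 and 567 in siTRA, a log2 difference in use of 0.72 with an adjusted p of 5.3e-05, and the adjusted p was 0.105 without library 14. The second had a log2 difference in use of 0.66, and its adjusted p was 0.251 without library 14. Both lie in the same overlap group and share reads. A bin at chr11:62841619-62841809 took 5.61%, 7.11% and 7.6% of its overlap group in CGG_siTRA, against 7.16%, 17.8% and 10.2% in siTRA. A bin at chr1:28507366-28507571 took 7.26%, 8.34% and 9.19% in CGG_siTRA, against 10.2%, 19.5% and 10.3% in siTRA. In both, library 14 was far above the other siTRA libraries, and the adjusted p without it was 0.606 and 0.905.

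The most highly counted of the bins called higher was at chr13:45341159-45341183, which took 1.76%, 2.17% and 2.19% of its overlap group in CGG_siTRA, against 1.70%, 1.26% and 1.55% in siTRA. The most highly counted of those called lower was at chr2:189031915-189034216, near the 3′ end of its gene, which took 6.07%, 5.08% and 4.88% in CGG_siTRA, against 6.04%, 10.4% and 5.77% in siTRA. Neither was called without library 14.

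Called bins were not spread evenly along genes. Among single genes with at least 5 tested bins, ordered from the 5′ end and cut into 10 equal position classes, 85 of 112 called bins lay in classes 1 and 2, which is 75.9%, against 20.9% of the tested bins of these genes. Of the 85, 84 were used more in CGG_siTRA. Class 10, at the 3′ end, held 13 called bins, and all 13 were used less. The median difference in use over the 25034 bins of class 1 was 0.15 on the log2 scale, against 0.01 in class 5 and -0.07 in class 10.

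This profile also differed between libraries of the same group. In class 1 the libraries deviated from their common mean by -0.03, 0.15 and 0.19 in CGG_siTRA libraries 16, 17 and 18, against -0.02, -0.17 and -0.02 in siTRA libraries 13, 14 and 15. In class 10 the values were -0.01, -0.01 and -0.05 in CGG_siTRA, against 0.00, 0.14 and -0.02 in siTRA. Library 16 had the profile of siTRA libraries 13 and 15 throughout. Without library 14 the median was 0.12 in class 1 and -0.01 in class 10. Coverage along the transcript therefore differed between libraries of the same group, and its part in the bin calls was not tested.

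**Figure D5:**
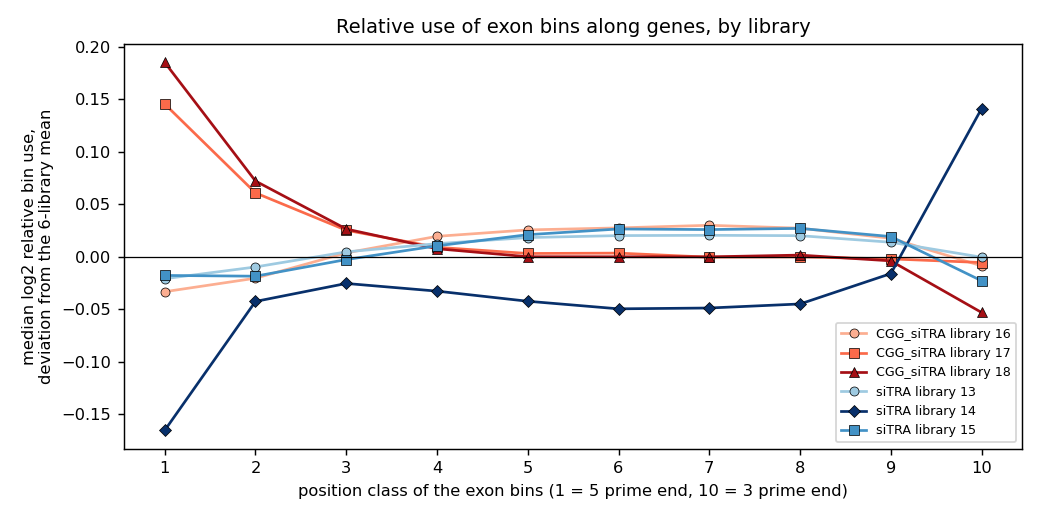
Median relative use of exon bins by position class (1 to 10) of the gene from the 5′ end, as log2 deviation from the mean of the 6 libraries, for single genes with at least 5 tested bins. CGG_siTRA libraries 17 and 18 are high in class 1 (0.15 and 0.19), siTRA library 14 is low there (-0.17) and high in class 10 (0.14), and libraries 16, 13 and 15 run together.

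The splicing events were taken from the authors' deposited table for CGG_siTRA and siTRA, which gives a p-value and a change in percent spliced in for each of 6311 events without values per sample. A p under 0.05 was given for 398 events (6.31%) of the authors' deposited table. The authors' deposited tables gave 485 (7.68%) for CGG and CTL and 516 (8.18%) for TRA_OE and CTL. After Benjamini-Hochberg adjustment of the p-values of the authors' deposited tables, 3 events (0.0475%) remained under 0.05 for CGG_siTRA and siTRA, against 84 for CGG and CTL and 77 for TRA_OE and CTL. The change in percent spliced in was read as CGG_siTRA minus siTRA. The normalised counts of the bins inside the event gave the same sign for 47 of 56 cassette exons with a p under 0.05 and a change of at least 0.02 in the authors' deposited table.

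Cassette exons, which are skipped or included whole and are the kind of exon that TRA2A is known to act on, were the largest class. Of 1580 cassette events, 104 (6.58%) had a p under 0.05 in the authors' deposited table, against 185 (11.7%) for CGG and CTL and 195 (12.3%) for TRA_OE and CTL. Of the 104, 75 had lower and 29 had higher inclusion in CGG_siTRA, so that 72.1% were lower, and over all 1580 cassette events 53.5% were lower. The excess was not particular to cassette exons: of all 398 events with such a p, 63.3% changed below 0, against 51.1% of all 6311. Alternative first exons had 43 lower and 16 higher, and alternative 5′ splice sites 34 and 15. Alternative last exons had 26 lower and 31 higher. Among the other classes of the authors' deposited table the share under 0.05 was 7.13% for alternative first exons, 7.13% for alternative last exons, 6.60% for alternative 5′ splice sites, 5.93% for alternative 3′ splice sites, 5.13% for complex events and 4.65% for retained introns. It was 9.76% for mutually exclusive exons, where it stands for 4 of 41 events. Changes were small: the median size among the 398 events of the authors' deposited table was 0.037, and 31 of them changed by 0.1 or more.

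The smallest p of the authors' deposited table, 1.6e-06, belonged to an alternative first exon at chr1:63571128-63629425, with a change of 0.16 and an adjusted p of 0.0099. The 1 bin inside it took 2.82%, 2.58% and 2.55% of the normalised counts of its gene in CGG_siTRA libraries 16, 17 and 18, against 2.61%, 2.70% and 2.65% in siTRA libraries 13, 14 and 15. Those shares overlapped. The second in the authors' deposited table was an alternative first exon at chr3:170357746-170359699, with a change of -0.18 and an adjusted p of 0.0216. Its 3 inner bins took 0.34%, 0.41% and 0.33% in CGG_siTRA, against 0.53%, 0.26% and 0.48% in siTRA, and library 14 was the lowest of the 6. The third in the authors' deposited table was a cassette exon at chr18:9117903-9119474, with a change of -0.0091 and an adjusted p of 0.0225. Its 2 inner bins took 5.45%, 6.0% and 6.17% in CGG_siTRA, against 5.58%, 5.75% and 5.56% in siTRA. None of the 3 had groups that separated in the bin shares, which cannot resolve a junction choice inside a bin. The mean shares of the third were 5.88% in CGG_siTRA and 5.63% in siTRA, against the sign of its deposited change. Those of the second, at 0.36% and 0.42%, went with its sign, and those of the first were both 2.65%. The authors' deposited tables gave these 3 events p-values of 0.246 to 0.730 for CGG and CTL.

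The 10 smallest p-values among changes of 0.1 or more, and every cassette exon with such a change and a p under 0.01, made 12 events together with the 3 above, of which 11 had bins inside them. The groups separated in 2 of the 11. They also separated in 12 of the 56 cassette exons checked for direction, and in 11.6% of all bins tested, so nothing is read from the 2 as a count. A complex event at chr11:13421838-13463092, with a change of 0.21 in the authors' deposited table, had inner bins at 4.45%, 4.49% and 4.77% of their gene in CGG_siTRA, against 4.25%, 3.39% and 4.37% in siTRA. An alternative 3′ splice site at chr5:178941386-178942685, with a change of 0.17 in the authors' deposited table, had inner bins at 11.1%, 10.8% and 10.9% in CGG_siTRA, against 9.63%, 5.19% and 9.23% in siTRA. In both, library 14 was the lowest of the 6. Groups that do not overlap stay apart when any library is removed, so leaving out library 14 is no check here. The closest libraries of the groups were at 4.45% and 4.37% in the complex event and at 10.8% and 9.63% in the alternative 3′ splice site. Their adjusted p-values, over the events of the authors' deposited table, were 0.106 and 0.177.

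Of the cassette exons in that set, one at chr5:75389687-75400205 had a change of -0.13 in the authors' deposited table. Its bin took 1.78%, 1.45% and 1.66% of its gene in CGG_siTRA, against 1.78%, 2.40% and 1.90% in siTRA, so that library 16 met the lowest siTRA library. One at chr1:100266624-100268152 had a change of -0.11 in the authors' deposited table, and its inner bins took 0.69%, 1.02% and 0.98% in CGG_siTRA, against 0.90%, 0.79% and 0.94% in siTRA. These shares did not follow the sign of the deposited change.

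A retained intron at chr22:28796121-28796148 had a change of -0.17 in the authors' deposited table, and its inner bins took 4.81%, 4.36% and 5.16% in CGG_siTRA, against 6.17%, 3.76% and 7.2% in siTRA. Library 14 was below all CGG_siTRA libraries there, and the other siTRA libraries were above them. An alternative last exon at chr17:58512941-58517875 had a change of -0.16 in the authors' deposited table, and its inner bins took 1.29%, 1.08% and 1.30% in CGG_siTRA, against 1.20%, 1.70% and 1.30% in siTRA. Library 14 was the highest of the 6 in that event.

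Events that had a p under 0.05 in the knockdown comparison were mostly others than those of the repeat alone. A p under 0.05 both for CGG_siTRA and siTRA and for CGG and CTL was found for 35 events in the authors' deposited tables, which is 8.79% of the 398 and 7.22% of the 485, and 11 of the 35 changed with the same sign. For TRA_OE and CTL there were 33 shared events, 8.29% of the 398 and 6.40% of the 516, and 14 of the 33 had the same sign. Both shares of the 398 lie near the share of all events with such a p in those tables, which was 7.68% for CGG and CTL and 8.18% for TRA_OE and CTL. Nothing about the 398 events is therefore read from these overlaps.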

How the data were processed

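Ribosomal-RNA-depleted total RNA libraries were sequenced by the authors. Trimming used cutadapt 1.14 and alignment STAR 2.5.2, per the submitters' processing notes, which name the human build GRCh38.p10 although the cells are of a monkey, and list DESeq2 without version or role. Sequences that differ between the species can lose reads. The authors deposited, per the file headers, a normalised signal per exon bin and DEXSeq tables of raw counts per bin. The deposited splicing tables list, per event, the authors' p-value and z score, and the change in inclusion (percent spliced in, as a fraction).

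Multiplied by a scale of its own, the signal of each library came to within 0.1 of a whole read in 100.0% of values, equal to the deposited counts wherever both were listed. The 431444 positioned bins were summed to 19997 genes or overlap groups, and bins outside them held 1.56% to 2.10% of the counts. Normalised counts are reads divided by the authors' factor. Of 23133 Ensembl IDs, 0 could be paired with a name, so the gene and marker lists drawn up for this comparison could not be used.

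Genes were tested with edgeR 4.0.16 (quasi-likelihood, TMM) in R 4.3.3, with 5 group means over 15 libraries and Benjamini-Hochberg adjusted p under 0.05, for genes with 10 or more normalised counts in 3 libraries. Bins were tested with diffSpliceDGE in a separate fit of the bin counts, with the same groups and libraries. It took genes with at least 2 bins that passed the same count filter. limma 3.58.1 (pseudocount 1) and DESeq2 1.42.0 served as alternatives, with other scaling, filters and each library left out. Both tests were tested on simulated data first. The difference between CGG_siTRA over siTRA and CGG over CTL was an interaction contrast in the gene fit, added after the data were examined.

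Members and lists were chosen with earlier results of these data known. Genes named are those called, then the 10 largest differences each way among single genes whose higher group averaged at least 50, with an unadjusted p under 0.01 and groups that did not overlap. Bins named are the 5 with the smallest adjusted p and the highest-mean one each way, plus those called without library 14. Library columns could not be tied to replicate numbers or to the rounds that 2 CGG_siTRA titles name. CGG_TRA samples were not analysed here. Depth is given as counts over bins.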

Additional observations from a re-analysis of the deposited data

Results flagged for a closer look

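The change of CGG_siTRA over siTRA differed from the change of CGG over CTL for 2897 of 14969 genes (19.4%) at an adjusted p under 0.05, by edgeR's interaction contrast. With each library of the knockdown groups left out in turn the number ran from 2066 to 3349. This difference holds the delivery of siRNA and plasmid as well as the repeat, and they cannot be told apart. The values that follow are the first change minus the second on the log2 scale, for genes named in the report that passed this test. Those genes were named for their change of CGG_siTRA over siTRA, which is itself part of the contrast. Nothing is therefore read from how many of them passed or from their signs.

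For the called genes the difference was -1.28 on chromosome 12 and -1.26 on chromosome 9, and both passed with each library left out (largest adjusted p 4.0e-06 and 0.00418). Among the largest differences upward that were not called, it was -2.29 for the gene at chr19:48755559-48758330, 3.21 for chr17:6684713-6713567, 2.04 for chr1:149832670-149839767, 1.38 for chr16:3088890-3099317 and 1.34 for chr16:30989256-31010661. The chromosome 19 and chromosome 16 genes passed only with some libraries, since their largest adjusted p with a library left out was 0.0519, 0.103 and 0.0634.

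Among the largest differences downward it was -1.21 for the gene at chr3:122416225-122427240, -1.33 for chr1:166975582-167022210, -1.92 for chr10:89392546-89406486, -2.95 for chr4:73740506-73743716, -1.68 for chr1:222739684-222750660, -1.47 for chr11:102317450-102339394 and -0.67 for chr7:113078331-113086487. The chromosome 10 and 4 genes, the second chromosome 1 gene and the chromosome 11 gene passed with each library left out, and the other 3 did not, with largest adjusted p-values of 0.101, 0.0506 and 0.0683.

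Among the 13 genes with an adjusted p between 0.05 and 0.1 for CGG_siTRA over siTRA, 8 passed with a positive difference and 3 with a negative one. Since they were picked by one part of the contrast, that count is no separate finding. It was 1.08 for the gene at chr19:8580242-8610735, 0.60 for chr19:45039040-45070956, 1.13 for the overlap group at chr22:20110821-20117392, 0.73 for chr21:45405137-45513720, 0.50 for chr16:287440-352673, 0.71 for chr11:576486-612222, 0.45 for chr16:28553915-28591790 and 0.94 for chr18:8705661-8832778. It was -0.60 for the gene at chr19:48872392-48876057, -0.86 for chr8:102648779-102655902 and -1.58 for chr4:165327623-165343160. The gene at chr16:28553915-28591790 did not pass without 1 of the libraries (largest adjusted p 0.0525).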

How the results depend on the processing

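The 2 genes called were also the count with the authors' scaling, without a filter and with the highest bin of each gene. DESeq2 called 566, limma 5 and the fit of the 6 libraries alone 1. With each library left out the count ran from 2 to 599. The 137 bins became 4587 with limma's diffSplice and 1 with the 6 libraries alone, and ran from 2 to 1098 with each library left out. A filter of 30 counts left 163. The 398 events became 132 at a p under 0.01 and 31 with a change of at least 0.1. Of 418 values for single named genes under these settings, 376 kept direction and side of the threshold, 40 passed it in addition, 1 lost it (the chromosome 12 gene with 6 libraries) and 1 reversed. That one was the gene at chr17:6684713-6713567, at -0.25 by its highest bin, and the cause was not tested. Of 531 set medians, 409 stayed within the spread between libraries. The median log2 difference of all genes was -0.05 with the authors' scaling, against 0.01 with TMM.

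No paired analysis was possible because the count columns carry no replicate numbers. Of the 137 bin calls, 2 were left without siTRA library 14, 7 without CGG_siTRA library 17 and 14 without CGG_siTRA library 18. Monkey reads were counted on human gene models, and how many reads that loses per gene was not tested.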
